A study of Mus musculus with 51 samples.

Results

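Loss of the tumour suppressor gene Vhl in skeletal muscle was measured on top of loss of the clock gene Bmal1, in gastrocnemius muscle of mice on a high-fat diet. The added effect of Vhl loss is a difference between 2 knockout effects. It is the log2 fold change of the double knockout over its own floxed controls, minus that of the Bmal1 knockout over its own. A value above 0 therefore means that a gene was higher, relative to controls, once Vhl was lost as well. The contrast was set by the labels and uses no measured value, so that every gene is a member. Of 48321 gene symbols in the count table, 13093 had enough reads to be tested.

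The contrast used 22 of the 51 libraries, 1 per animal. The dKO group held 4 animals labelled Bmal1KO;VhlKO, and the dFx group 6 controls labelled Bmal1fx/fx;Vhlfx/fx. The Bmal1KO group held 4 animals labelled Bmal1KO, and the Bmal1Fx group 8 controls labelled Bmal1fx/fx. In addition, 4 VhlKO animals and 6 VhlFx controls labelled Vhlfx/fx were used to set Vhl loss alone beside the contrast, and these 10 animals do not enter it. All 32 were on high-fat diet and belonged to the second batch named in the labels, so diet and batch did not differ between the groups. The Bmal1 knockout is specific to skeletal muscle, per the series' design text. The Cre driver, the deleted exons, the age and sex of the animals and the hour of harvest are not stated in the labels. RNA was taken from whole frozen muscle, which also holds vessels, blood, nerve and connective tissue, so fewer cells of a type and less RNA per cell cannot be told apart.

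BMAL1, encoded by Arntl, pairs with CLOCK or NPAS2 on E-box sequences and drives the daily rhythm of its targets, among them the Per, Cry and Nr1d1 repressors that close the clock's feedback loop. VHL is the substrate-binding part of a ubiquitin ligase that recognises hydroxylated hypoxia-inducible factor (HIF) alpha subunits and sends them for breakdown. Without VHL, HIF alpha subunits persist in the presence of oxygen, pair with ARNT and raise genes of glycolysis, angiogenesis, pH control and mitophagy. BMAL1 belongs to the same basic helix-loop-helix PAS family as the HIF subunits, and the study's title names a BMAL1-HIF axis in glucose metabolism.

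In the contrast, 2191 genes passed an adjusted p of 0.05 in edgeR's quasi-likelihood test, which is 16.7% of the genes tested. Of these, 1007 (7.69%) were higher and 1184 (9.04%) were lower with the loss of Vhl. More of the higher than of the lower genes differed by over 2-fold, 407 against 109. The genes that rose most were led by Ak4, Car9, Tph1, Egln3, Ndufa4l2, Adm, Pfkl and Pfkp, which are known from hypoxic cells except for Tph1, and by Stab2 and Kcnf1. The genes that fell most were led by Mylk4, a myosin light chain kinase of striated muscle, followed by Otub2, Mybph, Snai3 and Rims4. In the contrast, endothelial and globin transcripts rose, and transcripts of the respiratory chain, the TCA cycle and branched-chain amino acid breakdown fell. A rise in the Bmal1 knockout, with 40 of 57 genes higher and none lower, enters the respiratory chain value. Without scaling of the libraries 11 of these 57 genes were lower and none higher. In the same setting 9 of 28 genes of pyruvate entry and the TCA cycle were lower and 2 higher.

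The effects that make up the contrast were of unequal breadth. The double knockout changed 4638 genes against its controls (35.4%), 2272 of them higher (17.4%) and 2366 lower (18.1%). The Bmal1 knockout changed 1820 genes against its controls (13.9%), 909 higher (6.94%) and 911 lower (6.96%). These 2 effects share no animal, and 434 genes were higher in both, which is 19.1% of the genes higher in the double knockout and 47.7% of those higher in the Bmal1 knockout. A further 653 genes were lower in both, which is 27.6% of the genes lower in the double knockout and 71.7% of those lower in the Bmal1 knockout. Opposite calls were fewer, with 41 genes higher in the double and lower in the Bmal1 knockout and 86 genes lower in the double and higher in the Bmal1 knockout.

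**Figure D1:**
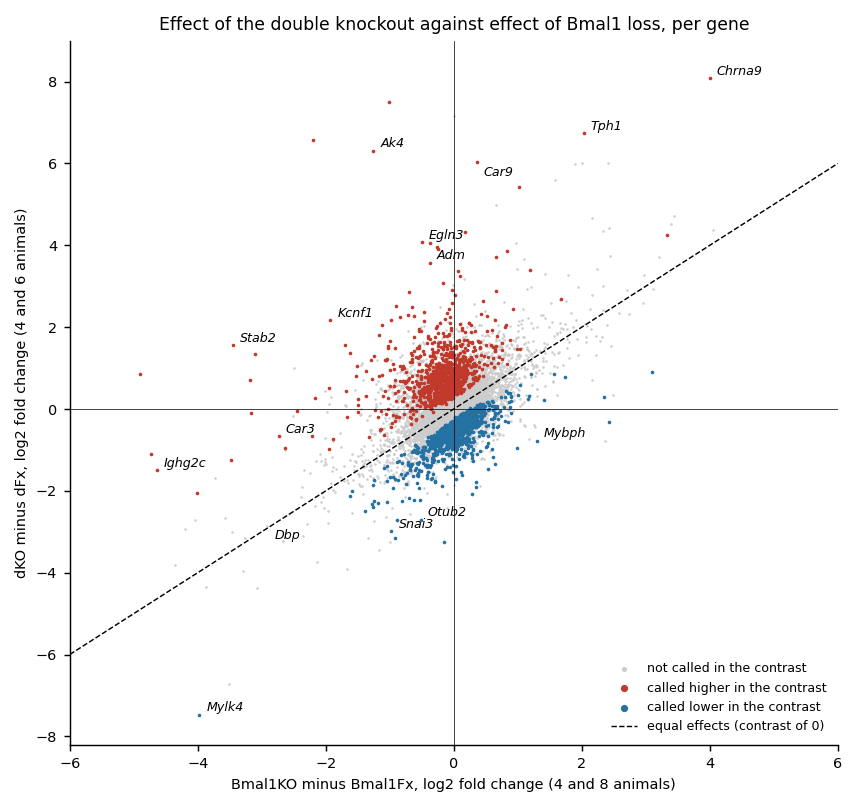
Each point is 1 of 13093 genes, with the log2 fold change of dKO over dFx on the vertical axis and that of Bmal1KO over Bmal1Fx on the horizontal axis. Red and blue points are the 1007 genes higher and the 1184 genes lower in the contrast, and the dashed line marks equal effects. Ak4, Car9 and Egln3 stand near the vertical axis, Stab2 and Kcnf1 in the upper left, and Mylk4 alone at the bottom left.

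Libraries ranged from 6945247 to 14717795 counts, and log2 CPM of replicates correlated at 0.965 to 0.984 over genes. The groups differed in composition: mitochondrial transcripts took 16.6 to 23.0% of counts in dKO, against 22.3 to 29.4% in dFx, 25.8 to 31.5% in Bmal1KO and 29.9 to 34.0% in Bmal1Fx. The dKO and dFx ranges overlapped through dKO animal 4 and dFx animal 4. The control groups dFx and Bmal1Fx did not overlap, so the share also differed between lines. The scaling mattered for the contrast, and the part of mitochondrial transcripts in this was not tested. With TMM scaling the median log2 value over all genes was 0.0021 and 46.0% of the calls were higher. Without any scaling the median was 0.27, with 2510 genes higher and 294 lower, so that 89.5% of the calls were higher. In the same way the median of the double knockout effect moved to 0.37 without scaling, and that of the Bmal1 knockout effect to 0.074. All other values are with TMM scaling, hence relative to the bulk of genes, and CPM are TMM-scaled. With the counts of mitochondrial transcripts left out and TMM scaling kept, 998 genes were higher and 1196 lower.

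The targeted genes were examined first. Vhl was at 3.84, 2.26, 2.70 and 1.64 CPM in dKO, against 3.48, 4.14 and 5.62 CPM (lowest, median and highest) in dFx. In Bmal1KO it was at 4.21, 4.57, 4.65 and 5.66 CPM, against 2.48, 3.70 and 6.05 CPM in Bmal1Fx. One dKO animal lay within the range of its controls, and the Bmal1 groups overlapped. The contrast was -1.10 ± 0.35 (log2 ± SE, adjusted p = 0.0243), and the call was lost without dKO animal 2 (-1.04, adjusted p = 0.0544), dKO animal 4 (-0.94, adjusted p = 0.0726) or Bmal1KO animal 9 (-1.01, adjusted p = 0.0590), and without scaling (-0.82, adjusted p = 0.113). Arntl was at 14.0, 9.32, 9.63 and 13.3 CPM in dKO, against 13.8, 16.1 and 17.8 CPM in dFx. The Bmal1KO animals had 9.99, 8.42, 8.16 and 10.5 CPM, against 8.60, 11.2 and 12.9 CPM in Bmal1Fx, and the contrast of -0.25 ± 0.18 did not pass (adjusted p = 0.395, and 0.028 in place of -0.25 without scaling). QuantSeq counts the 3′ end of transcripts, which may lie outside the deleted part of either gene, so these levels check nothing about the labels.

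Promoter sequence is shown for 6 of the genes with the largest values in the contrast, since HIF binds the core letters ACGTG or GCGTG and BMAL1 binds E-boxes, of which CACGTG is the best known. The 250 bases before the start of transcription were read from RefSeq (GRCm38.p6) and searched on both strands. An E-box of these letters also holds the ACGTG core and is counted under both. Matches are in capitals (CACGT and CACGC are the cores on the other strand). Ak4, with 4 start sites in RefSeq, is shown for the first of them (chr4:101419039-101419288, plus strand), Car9 at chr4:43506776-43507025 (plus), Tph1 for the first of 2 start sites (chr7:46672538-46672787, minus), Adm at chr7:110627407-110627656 (plus), Pfkp at chr13:6648772-6649021 (minus) and Mylk4 at chr13:32783965-32784214 (minus).
Ak4: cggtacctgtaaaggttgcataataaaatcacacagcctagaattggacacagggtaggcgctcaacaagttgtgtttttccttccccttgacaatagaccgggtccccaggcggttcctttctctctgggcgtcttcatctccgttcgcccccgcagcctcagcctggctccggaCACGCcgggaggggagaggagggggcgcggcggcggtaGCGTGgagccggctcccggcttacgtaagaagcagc
Car9: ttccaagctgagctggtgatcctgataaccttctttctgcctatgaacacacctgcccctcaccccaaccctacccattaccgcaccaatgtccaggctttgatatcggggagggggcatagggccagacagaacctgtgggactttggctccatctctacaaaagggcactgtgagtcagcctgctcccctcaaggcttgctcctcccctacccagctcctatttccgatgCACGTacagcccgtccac
Tph1: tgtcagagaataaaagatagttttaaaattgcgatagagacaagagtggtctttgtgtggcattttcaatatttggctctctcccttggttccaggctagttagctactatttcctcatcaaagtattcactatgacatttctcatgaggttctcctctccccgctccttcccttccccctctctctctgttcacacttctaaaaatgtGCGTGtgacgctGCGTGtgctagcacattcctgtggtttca
Adm: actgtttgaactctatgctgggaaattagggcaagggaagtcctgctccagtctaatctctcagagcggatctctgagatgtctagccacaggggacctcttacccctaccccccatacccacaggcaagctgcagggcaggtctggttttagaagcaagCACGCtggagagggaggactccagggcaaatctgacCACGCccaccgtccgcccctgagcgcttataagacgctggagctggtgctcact
Pfkp: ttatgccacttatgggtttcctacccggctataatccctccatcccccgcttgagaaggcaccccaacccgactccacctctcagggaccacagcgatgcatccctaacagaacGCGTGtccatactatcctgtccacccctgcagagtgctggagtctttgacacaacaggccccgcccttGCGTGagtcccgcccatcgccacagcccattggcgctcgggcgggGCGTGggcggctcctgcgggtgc
Mylk4: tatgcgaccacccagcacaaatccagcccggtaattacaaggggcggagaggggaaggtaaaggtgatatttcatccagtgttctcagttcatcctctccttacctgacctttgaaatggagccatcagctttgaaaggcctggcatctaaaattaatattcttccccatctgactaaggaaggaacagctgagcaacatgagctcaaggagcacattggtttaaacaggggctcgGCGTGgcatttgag

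The core stood 74 and 36 bases before the printed start of Ak4, 18 bases before that of Car9, 41 and 29 before that of Tph1, 90 and 54 before that of Adm, 136, 68 and 23 before that of Pfkp, and 14 before that of Mylk4, which fell. The E-box letters were in none of these 6 windows. The choice of start site matters: the window of the fourth Ak4 start (chr4:101419453-101419702) holds 1 E-box, and that of the second Tph1 start (chr7:46667378-46667627) holds no core. Neither motif was in the windows of Stab2 or Kcnf1. The letters are common: the core was present before 61.3% of the 9522 tested genes with a RefSeq promoter. It was present before 56.1% of 710 genes higher in the contrast, 51.7% of the 269 that were also over 2-fold higher, and 64.7% of 943 lower genes. The E-box stood before 8.59% of the higher and 10.5% of the lower genes, against 10.0% of all tested genes with a promoter. Higher genes thus held either motif no more often in this window than the genes tested as a whole.

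Ak4, a mitochondrial adenylate kinase and known HIF target, had the largest value among the named genes (chr4:101419277-101466995, plus strand; gene positions are on GRCm38 throughout). It was at 165, 172, 169 and 158 CPM in dKO, against 1.14, 2.04 and 2.96 CPM in dFx. Bmal1KO animals stood at 1.18, 0.721, 0.742 and 1.26 CPM, against 1.38, 2.24 and 3.26 CPM in Bmal1Fx. The dKO animals were thus far above their controls, and all Bmal1KO animals were below theirs. The double knockout effect was 6.31 ± 0.13 and the Bmal1 knockout effect -1.25 ± 0.22, which gave a contrast of 7.56 ± 0.25 (adjusted p = 2.23e-27). Most of the contrast came from the double knockout, and the fall with Bmal1 loss alone added to it.

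Car9, a carbonic anhydrase that faces outwards at the cell surface and serves as a marker of HIF activity, was at 39.4, 43.1, 40.4 and 48.5 CPM in dKO, against 0.435, 0.525 and 1.07 CPM in dFx. It was at 1.27, 0.721, 1.28 and 1.98 CPM in Bmal1KO, against 0.605, 1.03 and 1.38 CPM in Bmal1Fx (chr4:43506966-43513729). The contrast was 5.68 ± 0.31 (adjusted p = 1.58e-19). The dKO and dFx groups were far apart, while the Bmal1 groups overlapped. Tph1, the first enzyme of peripheral serotonin synthesis, was at 58.5, 94.7, 109 and 105 CPM in dKO, against 0.443, 0.966 and 1.11 CPM in dFx. Its level in Bmal1KO was 4.11, 2.81, 3.44 and 3.32 CPM, against 0.284, 0.729 and 1.41 CPM in Bmal1Fx (chr7:46644641-46672537). Tph1 rose with Bmal1 loss alone (2.03 ± 0.26) and rose more in the double knockout (6.74 ± 0.19), a contrast of 4.71 ± 0.39 (adjusted p = 1.68e-11).

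Of 13 tested genes of HIF feedback and oxygen sensing, 5 were higher and 2 lower in the contrast, with a median of 0.08. Egln3, a prolyl hydroxylase that marks HIF alpha for VHL, was at 792, 699, 633 and 731 CPM in dKO, against 35.0, 43.0 and 46.5 CPM in dFx. It was at 42.0, 28.9, 24.6 and 25.6 CPM in Bmal1KO, against 32.3, 41.4 and 53.1 CPM in Bmal1Fx (chr12:54178981-54203860). The contrast was 4.57 ± 0.19 (adjusted p = 1.36e-17), and 3 of the 4 Bmal1KO animals were below all of their controls. Its relative Egln1 was at 436 to 468 CPM in dKO and 188 to 213 CPM in dFx, with a contrast of 1.32 ± 0.08. Ankrd37, a known HIF target whose last exon lies against Ufsp2 on the other strand, had a contrast of 1.95 ± 0.40. Epas1, which encodes HIF-2 alpha, rose by 0.42 ± 0.11, with 60.0 to 79.5 CPM in dKO and 48.1 to 54.6 CPM in dFx. Besides Vhl, the lower gene was Hif1a itself, which encodes HIF-1 alpha, at -0.58, and this call was lost without scaling (-0.31, adjusted p = 0.185).

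Of 19 genes of glucose transport and glycolysis known as HIF targets, 11 were higher and 1 was lower, with a median of 0.89. The lower one, the aldolase gene Aldoa (-0.30), was not called without scaling (-0.023, adjusted p = 0.886). The phosphofructokinase genes of liver and platelet type led them, whereas the muscle type is the usual isozyme of this tissue. Pfkl was at 30.2, 33.3, 34.2 and 30.3 CPM in dKO, against 2.67, 3.82 and 4.35 CPM in dFx. The Bmal1KO levels were 3.72, 5.13, 3.50 and 4.31 CPM, against 3.20, 4.44 and 6.97 CPM in Bmal1Fx. The contrast was 3.25 ± 0.23 (adjusted p = 4.1e-15), and the Bmal1 groups overlapped throughout. Pfkp, which overlaps Pitrm1 on the other strand at its 3′ end, had a contrast of 3.14 ± 0.22, with 34.8 to 47.0 CPM in dKO, against 3.31 to 5.00 CPM in dFx. Pdk1, a kinase that shuts off pyruvate dehydrogenase, was at 73.4, 73.0, 89.4 and 82.5 CPM in dKO, against 19.9, 25.3 and 31.3 CPM in dFx. With a Bmal1 effect of -0.16 ± 0.09, its contrast was 1.78 ± 0.13. The glucose transporter gene Slc2a1 had a contrast of 1.48 ± 0.22.

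For Ldha and Pfkfb3 a fall with Bmal1 loss entered the contrast. Ldha, which encodes the muscle subunit of lactate dehydrogenase, was at 2129, 1847, 2122 and 1990 CPM in dKO, against 1100, 1238 and 1279 CPM in dFx. Animals of Bmal1KO had 953, 981, 964 and 943 CPM, against 1257, 1357 and 1510 CPM in Bmal1Fx. All dKO animals were above their controls and all Bmal1KO animals below theirs. The effects were 0.73 ± 0.07 in the double knockout and -0.52 ± 0.07 in the Bmal1 knockout, a contrast of 1.25 ± 0.10 (adjusted p = 3.9e-14). Pfkfb3, which makes the activator of phosphofructokinase, was at 160, 180, 168 and 173 CPM in dKO, against 167, 187 and 244 CPM in dFx. For Bmal1KO the values were 81.1, 55.1, 43.9 and 42.3 CPM, against 145, 180 and 206 CPM in Bmal1Fx. The dKO and dFx groups overlapped (-0.21 ± 0.19), so its contrast of 1.46 ± 0.27 (adjusted p = 0.000255) came from the fall in the Bmal1 knockout (-1.67 ± 0.20).

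Of 11 genes of HIF-induced mitochondrial remodelling and mitophagy, 6 were higher and none was lower, with a median of 1.06. Ndufa4l2, which replaces a subunit of respiratory complex IV under HIF activity, was at 52.3, 43.8, 28.7 and 38.4 CPM in dKO, against 2.07, 2.48 and 3.37 CPM in dFx. In Bmal1KO it was at 2.74, 2.73, 3.17 and 1.08 CPM, against 1.60, 2.87 and 4.38 CPM in Bmal1Fx. The contrast was 4.22 ± 0.29 (adjusted p = 1.51e-13). Its last exon overlaps Shmt2 on the opposite strand, which had a contrast of 2.32 ± 0.17, and the strand setting of the counting is not stated in the labels, so reads of this pair may be shared. Bnip3, a receptor for mitophagy on the outer mitochondrial membrane, was at 564, 431, 465 and 480 CPM in dKO, against 143, 155 and 172 CPM in dFx. Its contrast was 1.87 ± 0.10, and that of its relative Bnip3l was 1.25 ± 0.11. The 3′ end of Bnip3 overlaps a predicted gene on the other strand. Mxi1, a MYC antagonist, was at 46.1 to 54.7 CPM in dKO, against 35.3 to 43.7 CPM in dFx. The Bmal1KO animals had 24.1 to 28.5 CPM, against 35.5 to 44.2 CPM in Bmal1Fx, and the contrast was 1.06 ± 0.11. Neither pair of Mxi1 groups overlapped, and they lay apart in opposite directions.

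Of 15 angiogenic ligands and receptors, 8 were higher and none was lower, with a median of 0.77. The peptide hormone gene Adm was at 23.1, 30.7, 20.5 and 39.7 CPM in dKO, against 1.52, 2.54 and 3.23 CPM in dFx. Bmal1KO animals stood at 1.76, 2.89, 2.02 and 2.78 CPM, against 1.99, 2.74 and 4.70 CPM in Bmal1Fx, for a contrast of 3.95 ± 0.35 (adjusted p = 1.71e-10). Vegfa, the main growth factor for vessels, was at 208, 267, 193 and 275 CPM in dKO, against 72.7, 92.2 and 127 CPM in dFx. All dKO animals were above all controls, and the contrast was 1.44 ± 0.17, with no called change in the Bmal1 knockout (-0.11 ± 0.12). Its receptor gene Flt1 had a contrast of 1.09 ± 0.10, with 113 to 122 CPM in dKO, against 45.4 to 55.9 CPM in dFx. Ramp2, a partner of the adrenomedullin receptor whose 3′ end overlaps Vps25, had a contrast of 0.93 ± 0.18.

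Of 7 genes of pH and ion control, 5 were higher and none was lower in the contrast, with a median of 0.63, yet the double knockout itself held 2 higher and 4 lower of them and the Bmal1 knockout 1 higher and 4 lower. Car3, an abundant cytosolic carbonic anhydrase of muscle and fat, shows this form. It was at 2043, 1467, 1067 and 1425 CPM in dKO, against 1951, 2380 and 2799 CPM in dFx. Its level in Bmal1KO was 242, 412, 308 and 343 CPM, against 1974, 2169 and 2393 CPM in Bmal1Fx. Levels fell in both knockouts, by 0.67 ± 0.13 in the double and by 2.73 ± 0.14 in the Bmal1 knockout, and 3 of 4 dKO animals were below their controls. Without scaling the fall in the double knockout was not called (-0.31, adjusted p = 0.0684). The contrast was therefore 2.06 ± 0.18 (adjusted p = 3.08e-09) without a rise over controls. Slc4a4, a bicarbonate cotransporter, had the same order, with effects of -0.52 ± 0.10 in the double and -1.15 ± 0.11 in the Bmal1 knockout and a contrast of 0.63 ± 0.15. Its double knockout value was likewise not called without scaling (-0.16, adjusted p = 0.185).

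Of 17 matrix enzymes and stress genes known as HIF targets, 9 were higher and none was lower, with a median of 0.63. P4ha1, a subunit of the collagen prolyl hydroxylase, was at 91.4, 108, 108 and 122 CPM in dKO, against 20.3, 24.7 and 30.8 CPM in dFx. The contrast was 1.88 ± 0.13 (adjusted p = 5.17e-16). Loxl2, which crosslinks collagen, had a contrast of 1.58 ± 0.20, and Ero1l, an oxidase of the endoplasmic reticulum, one of 1.45 ± 0.31. In the extracellular matrix list 5 of 25 genes were higher and none was lower. The basement membrane collagen Col4a1 was among them, with 99.1, 130, 109 and 106 CPM in dKO, against 62.2, 69.4 and 74.2 CPM in dFx and a contrast of 0.76 ± 0.11.

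**Figure D2:**
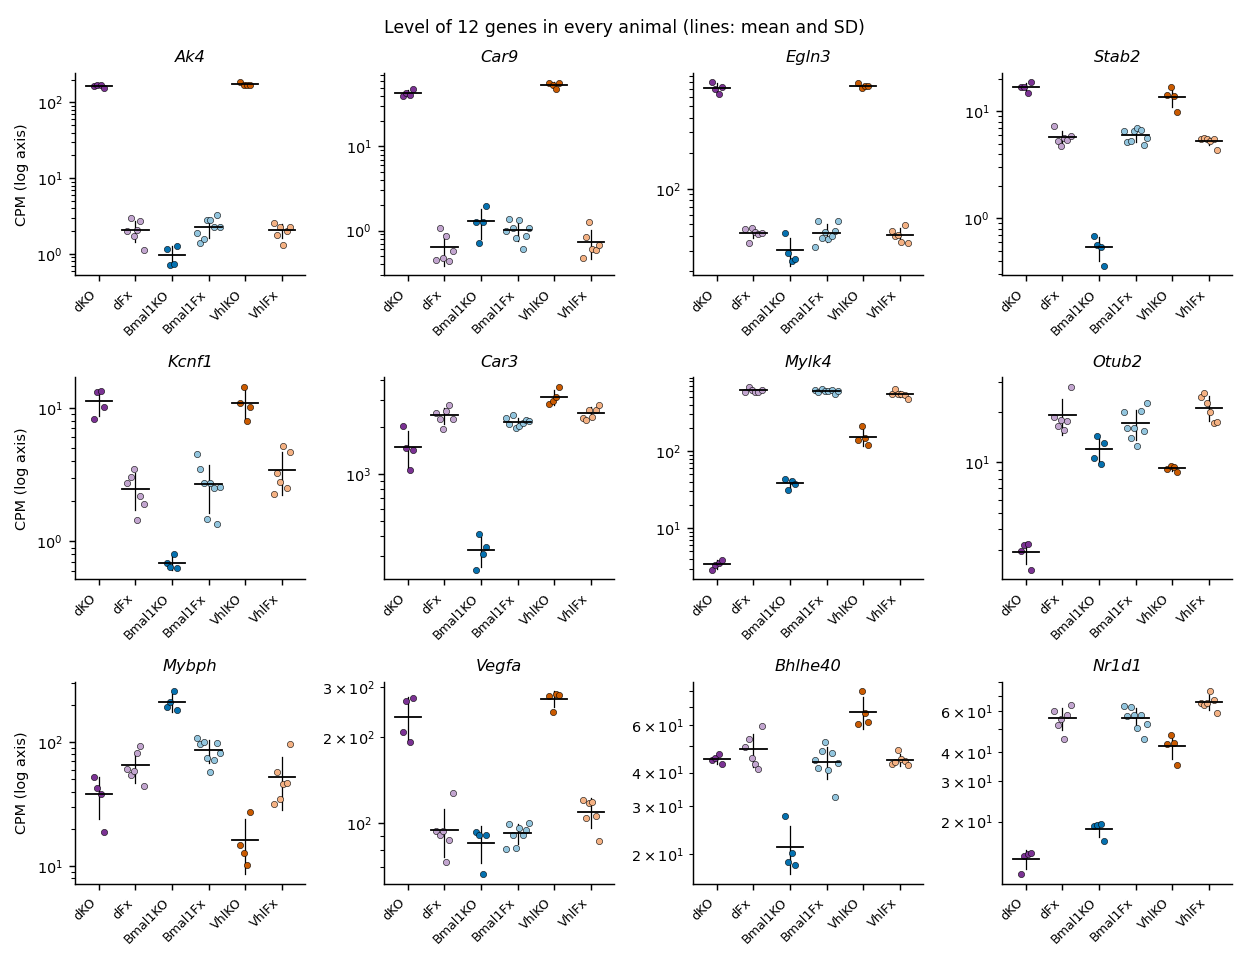
Levels of 12 genes in each of the 32 animals, in CPM on log axes. Each point is 1 animal, with horizontal lines at group means and vertical lines of 1 SD. Ak4, Car9 and Egln3 are far above their controls in dKO and VhlKO, Stab2 and Kcnf1 are above their controls in these groups and below them in Bmal1KO, and Mylk4 is at 2.85 to 3.91 CPM in dKO.

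Stab2 and Kcnf1 moved in opposite directions in the 2 effects. Stab2, a scavenger receptor for hyaluronan best known from sinusoidal endothelium (chr10:86841198-87008025, minus strand), was at 16.9, 17.0, 14.8 and 18.6 CPM in dKO, against 4.78, 5.53 and 7.26 CPM in dFx. The Bmal1KO levels were 0.686, 0.561, 0.539 and 0.359 CPM, against 4.89, 6.07 and 7.00 CPM in Bmal1Fx. Neither pair of groups overlapped. Stab2 rose by 1.56 ± 0.13 in the double knockout and fell by 3.45 ± 0.21 in the Bmal1 knockout, a contrast of 5.01 ± 0.25 (adjusted p = 5.08e-21). Kcnf1, a silent subunit of voltage-gated potassium channels (chr12:17172100-17176888, minus strand), was at 8.22, 13.0, 13.3 and 10.1 CPM in dKO, against 1.45, 2.46 and 3.48 CPM in dFx. Animals of Bmal1KO had 0.686, 0.641, 0.809 and 0.628 CPM, against 1.34, 2.65 and 4.55 CPM in Bmal1Fx. With all dKO animals above and all Bmal1KO animals below their controls, its contrast was 4.10 ± 0.40 (adjusted p = 4.43e-10).

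Chrna9 and Ighg2c had large positive values that depended on single animals. Chrna9, a nicotinic acetylcholine receptor subunit, was at 51.2, 28.8, 30.2 and 30.1 CPM in dKO, against 0, 0.044 and 0.572 CPM in dFx. For Bmal1KO the values were 1.47, 3.37, 1.75 and 1.44 CPM, against 0, 0.093 and 0.413 CPM in Bmal1Fx. The gene was detected in both knockouts and barely in controls. Its contrast of 4.08 ± 1.26 (adjusted p = 0.024) lost its call without Bmal1Fx animal 8 (3.40, adjusted p = 0.153) or Bmal1Fx animal 13 (3.98, adjusted p = 0.0504), and was 5.57 without dFx animal 6. For Ighg2c, an immunoglobulin constant region whose reads may be shared with related genes, the contrast of 3.14 ± 0.91 (adjusted p = 0.0169) rested on dKO animal 3, at 4.93 CPM against 0.157 to 0.658 CPM in the other 3 dKO animals. Without that animal it was 1.08 (adjusted p = 0.425), and without Bmal1KO animal 8 it was 3.93.

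Mylk4 had the largest negative value among all 13093 genes tested (chr13:32700834-32783954, minus strand). It was at 2.85, 3.35, 3.55 and 3.91 CPM in dKO, against 576, 607 and 687 CPM in dFx. In Bmal1KO it was at 43.3, 31.0, 41.2 and 37.3 CPM, against 552, 605 and 631 CPM in Bmal1Fx. The groups were apart in both lines, and every dKO animal was below every Bmal1KO animal. Mylk4 fell by 7.47 ± 0.15 in the double knockout and by 3.98 ± 0.11 in the Bmal1 knockout, a contrast of -3.49 ± 0.16 (adjusted p = 6.26e-19).

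The other genes at the low end lay farther below their controls in the double than in the Bmal1 knockout, where some lay above them. Otub2, a deubiquitinase, was at 2.96, 3.20, 3.24 and 2.27 CPM in dKO, against 15.7, 17.8 and 28.3 CPM in dFx. The Bmal1KO animals had 10.6, 14.3, 9.77 and 13.0 CPM, against 12.6, 16.0 and 22.5 CPM in Bmal1Fx, and the contrast was -2.18 ± 0.24 (adjusted p = 9.27e-09). Snai3, a zinc finger repressor of the Snail family, was at 0.877 to 1.02 CPM in dKO, against 5.81 to 9.72 CPM in dFx, with a contrast of -2.01 ± 0.36. Fdft1, squalene synthase, fell in the double knockout (-1.40 ± 0.12) with no called change in the Bmal1 knockout (0.04 ± 0.10), a contrast of -1.44 ± 0.16. Its 3′ end overlaps Ctsb on the other strand. Nmrk2, a nicotinamide riboside kinase of muscle, Mib1, a ubiquitin ligase of Notch ligands, and Wipf3, a regulator of actin assembly, had contrasts of -1.82 ± 0.37, -1.69 ± 0.16 and -1.44 ± 0.17. Grtp1 had a contrast of -1.45 ± 0.28. For Atf3, a stress-induced transcription factor, the contrast of -1.51 ± 0.50 (adjusted p = 0.0353) lost its call without any 1 of dKO animals 1, 2 and 3, dFx animal 6 and Bmal1KO animals 6, 7 and 8, with adjusted p of 0.0553 to 0.0874, and without scaling (-1.25, adjusted p = 0.0656).

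Mybph and Rims4 had values of opposite sign in the 2 knockouts. Mybph, a myosin-binding protein, was at 52.7, 43.0, 38.2 and 19.0 CPM in dKO, against 44.5, 59.3 and 92.4 CPM in dFx. Bmal1KO animals stood at 191, 211, 258 and 181 CPM, against 57.0, 89.0 and 108 CPM in Bmal1Fx. All Bmal1KO animals were above their controls, and 1 dKO animal lay within the range of its own. The contrast was -2.07 ± 0.40 (adjusted p = 0.000446), with effects of -0.78 ± 0.30 in the double (adjusted p = 0.0439) and 1.29 ± 0.26 in the Bmal1 knockout. The call in the double knockout was lost without scaling (-0.42, adjusted p = 0.273) and without any 1 of dKO animals 2, 3 and 4, dFx animals 1, 4 and 5, Bmal1KO animals 6 and 7 and VhlFx animals 2 and 4 (adjusted p up to 0.168). Its 3′ end overlaps Adora1 on the other strand. Rims4, of the RIM family of exocytosis proteins, had effects of -1.34 ± 0.23 in the double and 0.64 ± 0.19 in the Bmal1 knockout and a contrast of -1.98 ± 0.30. Ankrd2, a stretch-responsive protein of the sarcomere, was at 124, 123, 100 and 110 CPM in dKO, against 206, 279 and 327 CPM in dFx. Its contrast was -1.57 ± 0.31, with a Bmal1 effect of 0.30 ± 0.21 that did not pass.

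Genes of mitochondrial oxidation made up the broadest set of lower values in the contrast. Of 57 nuclear genes of the respiratory chain and ATP synthase, 40 were lower and none was higher in the contrast, with a median of -0.36 against 0.0021 for all genes. In the double knockout 22 of them were lower and 4 higher (median -0.12), and in the Bmal1 knockout 40 were higher and none lower (median 0.24). Summed over the 57 genes, the level was 22560 to 25190 CPM in dKO, against 25330 to 27410 CPM in dFx. The sum was 29960 to 33030 CPM in Bmal1KO, against 24050 to 29590 CPM in Bmal1Fx. With TMM scaling the sums did not overlap in either line and lay on opposite sides of their controls. TMM factors were 1.197 to 1.318 in dKO and 0.937 to 1.085 in dFx, and sums without scaling were not compared. Without scaling the median double knockout effect over all genes was 0.37. The lower sum in dKO is therefore relative to the bulk of genes. In the contrast without scaling, the list's median was -0.086 and 11 of its genes were lower, while its distance from the median of all genes was -0.36 both ways.

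Cox6a2, the muscle form of a complex IV subunit, was at 1411, 1149, 1157 and 1196 CPM in dKO, against 2044, 2155 and 2253 CPM in dFx. Its level in Bmal1KO was 2374, 2151, 2219 and 2209 CPM, against 1832, 2055 and 2287 CPM in Bmal1Fx, and the contrast was -0.92 ± 0.11 (adjusted p = 2.83e-08). Here the fall in the double knockout made up most of the contrast, and the 3′ end overlaps Itgad on the other strand. Atp5g3, a subunit of the ATP synthase rotor, was at 1231, 1322, 1181 and 1346 CPM in dKO, against 1379, 1501 and 1570 CPM in dFx. The Bmal1KO levels were 1857, 1824, 1947 and 1899 CPM, against 1246, 1376 and 1595 CPM in Bmal1Fx. Its contrast of -0.66 ± 0.08 (adjusted p = 9.39e-08) came more from the rise in the Bmal1 knockout (0.43 ± 0.06) than from the double knockout (-0.23 ± 0.06, which became 0.13 without scaling). Uqcrc1 of complex III and Ndufa8 of complex I had contrasts of -0.68 ± 0.08 and -0.67 ± 0.09, with Bmal1 effects of 0.22 ± 0.06 and 0.30 ± 0.06. Among 10 tested transcripts of the mitochondrial genome, 4 were lower and none was higher, with a median of -0.61. They include mt-Cytb (-0.66 ± 0.14) and mt-Co1 (-0.62 ± 0.16).

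In the list of pyruvate entry and the TCA cycle, 23 of 28 genes were lower in the contrast, with a median of -0.51. The 2 higher genes were Pdk1 and Pdk3, kinases that inhibit pyruvate dehydrogenase. Dlat, a subunit of that complex, was at 54.2, 52.9, 55.0 and 58.0 CPM in dKO, against 82.2, 86.7 and 94.8 CPM in dFx. Animals of Bmal1KO had 92.7, 93.1, 85.6 and 89.2 CPM, against 84.5, 86.5 and 91.7 CPM in Bmal1Fx, so the contrast of -0.73 ± 0.10 (adjusted p = 1.43e-07) came from the double knockout. Mdh2, mitochondrial malate dehydrogenase, was at 582, 499, 499 and 500 CPM in dKO, against 600, 616 and 666 CPM in dFx. For Bmal1KO the values were 738, 782, 720 and 714 CPM, against 539, 594 and 625 CPM in Bmal1Fx. The groups did not overlap in either line, with effects of -0.26 ± 0.06 in the double (0.098 without scaling) and 0.33 ± 0.05 in the Bmal1 knockout, for a contrast of -0.59 ± 0.08 (adjusted p = 4.3e-07). Sdhb of succinate dehydrogenase had a contrast of -0.62 ± 0.08. Without scaling 9 of the 28 genes were lower, with a median of -0.24.

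**Figure D3:**
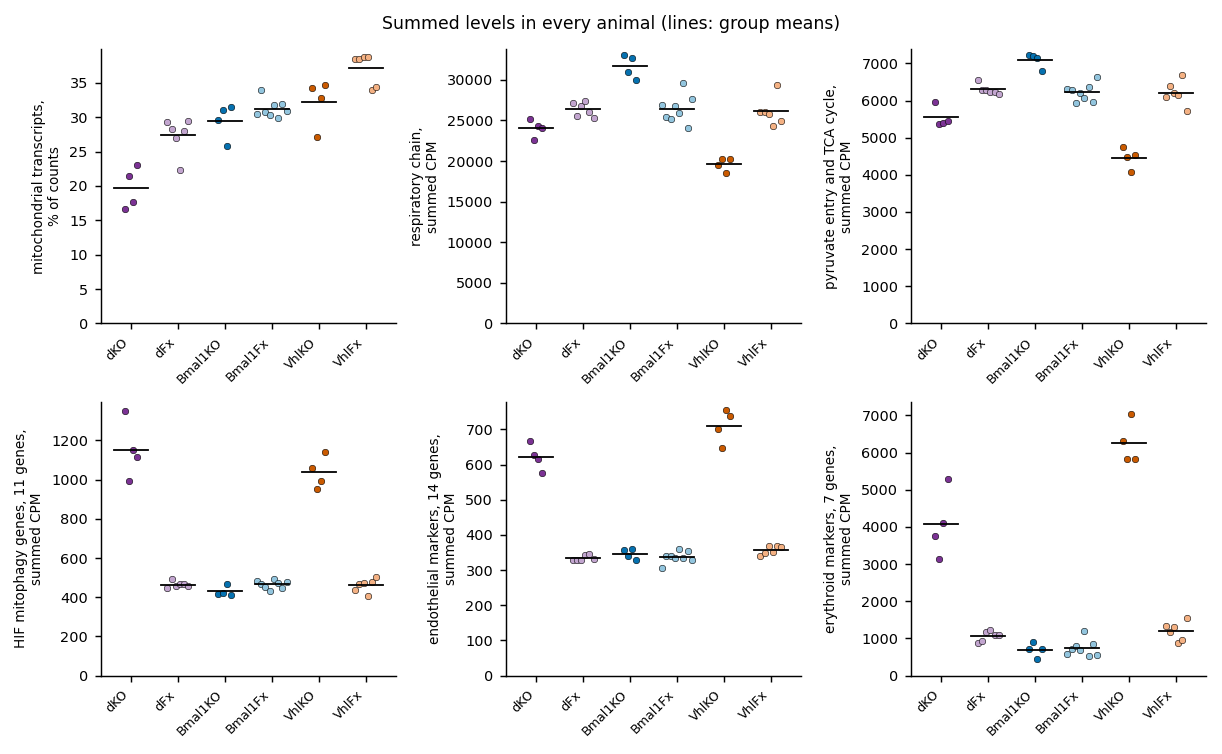
Each point is 1 animal and each line a group mean, for the mitochondrial share of counts and for summed CPM of 5 gene lists. With TMM scaling the respiratory chain sum is 22560 to 25190 CPM in dKO and 29960 to 33030 CPM in Bmal1KO, below and above their controls. Endothelial and erythroid sums are high in dKO and VhlKO.

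Branched-chain amino acid breakdown fell with 13 of 19 genes lower and none higher, and a median of -0.68. Without scaling 11 of the 19 were still lower, with a median of -0.40. Mccc2, a subunit of the carboxylase of leucine breakdown, was at 3.07, 2.55, 2.39 and 3.29 CPM in dKO, against 5.62, 5.98 and 7.93 CPM in dFx, with a contrast of -1.34 ± 0.20 (adjusted p = 1.41e-06). Mut, methylmalonyl-CoA mutase, was at 33.1, 34.7, 35.1 and 34.0 CPM in dKO, against 50.5, 55.8 and 60.2 CPM in dFx, with a contrast of -0.70 ± 0.10. Neither gene changed with Bmal1 loss to the point of a call (0.16 ± 0.13 for Mccc2 and 0.02 ± 0.07 for Mut). Of 31 genes of fatty acid uptake, storage and oxidation, 11 were lower and 3 higher, with a median of -0.22. Without scaling the balance turned, with 7 higher and 2 lower and a median of 0.053. Hadh, of mitochondrial beta-oxidation, had a contrast of -0.61 ± 0.10. In the list of mitochondrial biogenesis, 1 of 12 genes was higher and 2 were lower (3 higher and none lower without scaling). Over all genes tested 7.69% were higher and 9.04% lower. In this list Ppargc1a, the coactivator of mitochondrial gene expression, had a contrast of -1.35 (adjusted p = 0.028). Its call was lost without any 1 of dKO animals 1, 2 and 3 and Bmal1KO animals 6 and 7, with adjusted p of 0.0509 to 0.0642, and without scaling (-1.08, adjusted p = 0.0652).

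Few insulin signalling and glycogen genes were called, and in both directions, beside 7.69% higher and 9.04% lower over all genes tested. In the insulin and GLUT4 list, 1 of 20 genes was higher and 3 were lower, with a median of 0.032 (5 higher and 1 lower without scaling). In the glycogen list 2 of 18 were higher and 3 lower, with a median of -0.11 (6 higher and none lower without scaling, median 0.16). Tbc1d4, a Rab regulator that holds GLUT4 vesicles inside the cell, was at 25.3, 29.1, 16.3 and 23.6 CPM in dKO, against 36.6, 39.4 and 47.6 CPM in dFx. In Bmal1KO it was at 32.5, 30.0, 41.7 and 37.4 CPM, against 28.6, 34.0 and 35.5 CPM in Bmal1Fx, and its contrast was -0.89 ± 0.14 (adjusted p = 7.64e-06). Slc2a4, the gene of GLUT4 itself, had a contrast of -0.39 (adjusted p = 0.00147) that lost its call without scaling (-0.12, adjusted p = 0.464).

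None of 4 clock activators and none of 6 Per, Cry and Ciart genes passed in the contrast, beside 16.7% over all genes tested. For lists of this size, no call is near that share. The largest values among them were -2.31 ± 0.89 for Arntl2, a paralog of Arntl (adjusted p = 0.069), and 1.34 ± 0.61 for Ciart, a repressor of CLOCK and BMAL1 (adjusted p = 0.130). The Arntl2 contrast passed without dKO animal 1 (-2.79, adjusted p = 0.0484), Bmal1KO animal 8 (adjusted p = 0.032) or Bmal1Fx animal 9 (adjusted p = 0.0322). Ciart fell in both knockouts, by 2.70 ± 0.35 in the double and by 4.04 ± 0.39 in the Bmal1 knockout. Clock was at 50.0, 49.0, 46.8 and 52.5 CPM in dKO, against 27.9, 28.7 and 31.5 CPM in dFx. The Bmal1KO animals had 48.9, 49.8, 53.2 and 52.9 CPM, against 21.9, 25.1 and 28.4 CPM in Bmal1Fx. Both knockouts were above their controls, and the contrast was -0.25 ± 0.10 (adjusted p = 0.0911), which became 0.018 without scaling. Dbp, a PAR-bZIP factor directly driven by BMAL1, was at 3.84, 2.55, 3.93 and 3.52 CPM in dKO, against 18.5, 23.9 and 28.5 CPM in dFx. Bmal1KO animals stood at 6.17, 6.09, 5.53 and 4.76 CPM, against 18.5, 30.3 and 34.3 CPM in Bmal1Fx. Its effects were -2.82 ± 0.19 in the double and -2.30 ± 0.17 in the Bmal1 knockout, and the contrast of -0.52 ± 0.26 did not pass (adjusted p = 0.189). Dbp overlaps Sphk2 at its 3′ end.

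The DEC, REV-ERB and ROR genes held 1 higher and 3 lower of 6 (2 higher and 1 lower without scaling). Bhlhe40, the gene of DEC1 and a target of both BMAL1 and HIF, was at 44.4, 45.4, 46.9 and 42.9 CPM in dKO, against 41.3, 47.4 and 59.8 CPM in dFx. Its level in Bmal1KO was 27.5, 18.6, 20.1 and 18.2 CPM, against 32.6, 43.9 and 52.0 CPM in Bmal1Fx. Levels in dKO lay within the range of their controls, and all Bmal1KO animals were below theirs, for a contrast of 0.94 ± 0.15 (adjusted p = 8.63e-06). Bhlhe41, the gene of DEC2, went the other way: 17.1, 19.2, 15.3 and 14.6 CPM in dKO, against 46.9, 50.0 and 60.6 CPM in dFx. The Bmal1KO levels were 28.0, 28.8, 33.1 and 26.5 CPM, against 54.4, 57.0 and 64.8 CPM in Bmal1Fx, and its contrast was -0.66 ± 0.12 (adjusted p = 4.13e-05). Nr1d1, the gene of REV-ERB alpha, fell in both knockouts (-2.01 ± 0.10 in the double and -1.59 ± 0.09 in the Bmal1 knockout). Its contrast of -0.42 ± 0.13 (adjusted p = 0.0207) lost its call without dKO animal 1 (-0.36, adjusted p = 0.0632) and without scaling (-0.15, adjusted p = 0.438), and its 3′ end overlaps Thra.

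Fast fibre genes were lower in 11 of 15 cases and never higher in the contrast, with a median of -0.39, and 4 were lower without scaling. Myl1, the fast essential myosin light chain, was at 3010, 3097, 4012 and 3254 CPM in dKO, against 7532, 7858 and 8327 CPM in dFx. Animals of Bmal1KO had 6361, 6689, 6147 and 6981 CPM, against 8327, 9218 and 9788 CPM in Bmal1Fx. It fell in both knockouts and fell more in the double, for a contrast of -0.75 ± 0.09 (adjusted p = 2.33e-08). Mylpf, the fast regulatory light chain, was at 11920, 11200, 12240 and 10230 CPM in dKO, against 10550, 11100 and 11990 CPM in dFx. For Bmal1KO the values were 17070, 16970, 18270 and 17230 CPM, against 9376, 10730 and 12530 CPM in Bmal1Fx. The dKO and dFx groups overlapped (0.02 ± 0.07), so the contrast of -0.65 ± 0.10 came from the rise in the Bmal1 knockout (0.68 ± 0.07). Myh1, the IIx myosin heavy chain, had a contrast of -0.92 ± 0.17.

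In the slow fibre list, 2 of 14 genes were higher and none was lower in the contrast, beside 7.69% higher and 9.04% lower over all genes tested. The list's median was nevertheless -0.37. Pln, phospholamban, which restrains the calcium pump of slow muscle and heart, was at 32.7, 19.7, 24.4 and 26.4 CPM in dKO, against 1.34, 1.92 and 2.57 CPM in dFx. In Bmal1KO it was at 3.62, 4.49, 2.36 and 3.41 CPM, against 1.34, 1.85 and 3.64 CPM in Bmal1Fx, and the contrast was 3.06 ± 0.31 (adjusted p = 8.05e-10). Its 3′ end overlaps Cep85l. The other higher gene was Mb, myoglobin, at 0.41 ± 0.11. With Vhl loss alone, in VhlKO against VhlFx, 10 of the 14 slow fibre genes were higher and none lower (median 0.89). The contrast minus that effect had a median of -1.28, with 1 gene called lower and none higher. In the denervation list 2 of 15 genes were higher and 2 lower, beside 7.69% higher and 9.04% lower over all genes tested. Chrna1, the alpha subunit of the muscle acetylcholine receptor, rose in both knockouts (2.69 ± 0.14 in the double and 1.67 ± 0.14 in the Bmal1 knockout), for a contrast of 1.02 ± 0.20 (adjusted p = 0.00037).

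Stress lists gave mixed counts, to be read beside 7.69% higher and 9.04% lower over all genes tested. In the integrated stress list 4 of 18 genes were higher and 1, Atf3, was lower. Mthfd2, of mitochondrial one-carbon metabolism, was at 17.2, 15.1, 15.8 and 20.1 CPM in dKO, against 4.84, 6.67 and 7.51 CPM in dFx, with a contrast of 1.24 ± 0.23. Chac1, which breaks down glutathione, was at 17.0, 29.8, 26.7 and 25.7 CPM in dKO, against 31.3, 46.4 and 75.5 CPM in dFx. The Bmal1KO animals had 20.5, 8.10, 5.53 and 3.86 CPM, against 40.6, 56.4 and 72.3 CPM in Bmal1Fx. Its effects were -0.95 ± 0.33 in the double and -2.64 ± 0.37 in the Bmal1 knockout, so its contrast was 1.69 ± 0.48 (adjusted p = 0.0148), or 2.35 without Bmal1KO animal 6. The call in the double knockout was lost without any 1 of dKO animals 1, 3 and 4 and dFx animal 6 (adjusted p of 0.0506 to 0.0928) and without scaling (-0.59, adjusted p = 0.134). Among NRF2 targets, 2 of 13 genes were higher and 3 lower (3 higher and 1 lower without scaling). The atrophy list held 2 higher and 2 lower of 18 (6 higher and 1 lower without scaling), with Fbxo32, the muscle ubiquitin ligase atrogin-1, at 0.66 ± 0.17. Heat shock chaperones held 4 lower of 16 and none higher, but 2 lower and 3 higher without scaling. Hspe1, the mitochondrial co-chaperonin, was at -0.68 ± 0.12. Cryab, a small heat shock protein of muscle, was at -0.51 ± 0.17 (adjusted p = 0.0362), a call lost without scaling (-0.24, adjusted p = 0.324) and without any 1 of dKO animals 2 and 3, dFx animals 1, 3, 5 and 6, Bmal1KO animals 7 and 8 and Bmal1Fx animals 10, 12 and 14 (adjusted p up to 0.0994).

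Markers of some other cell types moved with the contrast. Of 14 endothelial markers 13 were higher and none was lower, with a median of 0.90. Their summed level was 577 to 666 CPM in dKO, against 328 to 346 CPM in dFx, and 329 to 361 CPM in Bmal1KO, against 307 to 359 CPM in Bmal1Fx. None of the 14 passed in the Bmal1 knockout. Cdh5, the cadherin of endothelial junctions, was at 57.4, 46.5, 44.2 and 38.7 CPM in dKO, against 19.8, 23.2 and 24.2 CPM in dFx, with a contrast of 0.98 ± 0.14 (adjusted p = 1.41e-06). The share of these markers in the rise of Flt1, Ramp2, Stab2 and the collagens was not tested, and Flt1 itself is on the endothelial list. Of 11 pericyte and smooth muscle markers 4 were higher and none lower, with Rgs5 at 0.97 ± 0.09. Fibro-adipogenic progenitor markers held 3 higher of 10 (median 0.17) and tenocyte markers 1 higher of 6 (median -0.086). Adipocyte markers held 1 higher of 10, although their median was -0.53. None was called lower in any of these lists. Over all genes tested 7.69% were higher and 9.04% lower, so single calls in such lists say little. The call of the progenitor marker Dcn was lost in 17 of 32 cases when 1 library was left out (adjusted p up to 0.111).

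Erythroid genes were higher in 6 of 7 cases, with a median of 2.03, and none was lower. Their sum was 3150 to 5280 CPM in dKO, against 868 to 1239 CPM in dFx, and 459 to 904 CPM in Bmal1KO, against 536 to 1197 CPM in Bmal1Fx. Hbb-bs, a beta globin whose reads may be shared with its near-identical copies, was at 2114, 1798, 2321 and 2896 CPM in dKO, against 469, 594 and 673 CPM in dFx, and its contrast was 2.03 ± 0.27 (adjusted p = 4.11e-06). Macrophage markers were higher in 5 of 12 cases, with a median of 0.81. Several of these calls were lost when 1 library was left out. C1qa, a complement subunit, was at 0.82 ± 0.28 (adjusted p = 0.0399), and the call was lost without any 1 of dKO animals 1, 3 and 4, dFx animals 1, 4 and 6, Bmal1KO animals 6, 8 and 9, Bmal1Fx animals 9 and 14 and VhlKO animal 4 (adjusted p up to 0.0917). Its partner C1qc, at 0.60 ± 0.21 (adjusted p = 0.038), lost its call without any 1 of dKO animals 2, 3 and 4, dFx animals 1 and 4, Bmal1KO animals 6, 7 and 9 and Bmal1Fx animals 9, 12 and 14 (adjusted p up to 0.0955). The haemoglobin scavenger receptor gene Cd163, at 1.13 ± 0.34, lost its call without Bmal1KO animal 8 (1.01, adjusted p = 0.0539). The summed macrophage level was 144 to 161 CPM in dKO, against 106 to 155 CPM in dFx, and 97.3 to 122 CPM in Bmal1KO, against 121 to 203 CPM in Bmal1Fx, so that a fall in Bmal1KO enters these contrasts. No marker of neutrophils, B and plasma cells, T and NK cells, satellite cells, Schwann cells or keratinocytes passed the test, and 8 of 10 T and NK cell markers and 6 of 10 B and plasma cell markers were below 1 CPM in all 22 libraries. The neutrophil marker Ly6g was at 0 in all of them. The summed B and plasma level was higher in both knockouts, at 100 to 199 CPM in dKO, against 47.65 to 65.38 CPM in dFx. It was 314 to 374 CPM in Bmal1KO, against 39.7 to 236 CPM in Bmal1Fx. Of the 4 B and plasma markers tested, 1 was called higher in each of these knockout effects.

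The labelled tissue was plain in all groups. The 8 genes that define myofibres of the gastrocnemius summed to 91260 to 94940 CPM in dKO, against 125200 to 134800 CPM in dFx, and to 119100 to 122600 CPM in Bmal1KO, against 120400 to 131700 CPM in Bmal1Fx. In the contrast 7 of the 8 were lower, with a median of -0.38, and 1 was lower without scaling. The part of these shifts in composition in the falls of the muscle and mitochondrial genes was not tested.

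**Figure D4:**
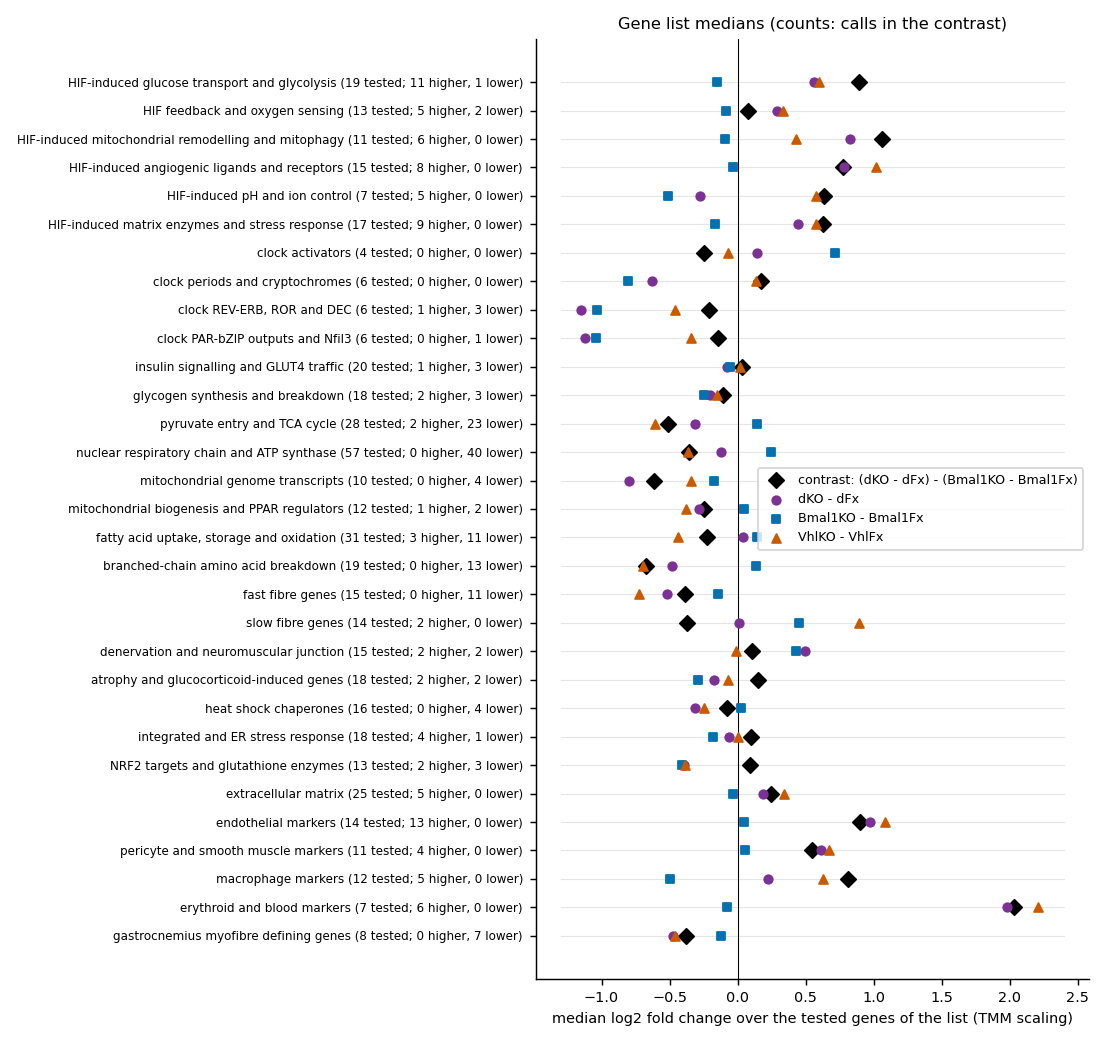
Medians of the log2 values over the tested genes of 31 lists, for the contrast (black diamonds) and for the knockout effects, with the calls in the contrast beside each name. HIF-induced lists, endothelial markers (0.90) and erythroid markers (2.03) lie to the right, and branched-chain amino acid breakdown (-0.68) and the TCA cycle (-0.51) to the left. For the respiratory chain the Bmal1 knockout lies to the right of 0 and the contrast to the left.

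Loss of Vhl with Bmal1 intact was measured in other animals and gave a comparison with no shared sample. VhlKO animals differed from VhlFx controls in 4876 genes (37.2%), 2320 of them higher (17.7%) and 2556 lower (19.5%). Of the genes higher in the contrast 70.6% were also higher in VhlKO, which is 711 genes and 30.6% of the genes higher in VhlKO. Of those lower in the contrast 72.4% were also lower in VhlKO, which is 857 genes and 33.5% of the genes lower in VhlKO. Opposite calls were made for 37 genes. Over all genes tested the 2 values correlated at r = 0.57 and rho = 0.54, a description over genes that share libraries within each value. A further 3271 genes were called in VhlKO but not in the contrast, which combines the error of 4 groups.

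HIF target genes were also high in VhlKO animals, which keep Bmal1. Car9 was at 56.3, 54.4, 47.9 and 56.3 CPM in VhlKO, against 0.473, 0.641 and 1.26 CPM in VhlFx. Egln3 was at 784, 712, 745 and 740 CPM in VhlKO, against 35.1, 40.1 and 49.7 CPM in VhlFx, an effect of 4.19 ± 0.13 beside its contrast of 4.57 ± 0.19. The difference between the contrast and the Vhl effect was -0.49 ± 0.40 for Car9 (adjusted p = 0.586) and 0.38 ± 0.22 for Egln3 (adjusted p = 0.401), and neither passed. For Vegfa it was 0.11 ± 0.20 (adjusted p = 0.833), and for Pdk1 0.08 ± 0.16 (adjusted p = 0.848).

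**Figure D5:**
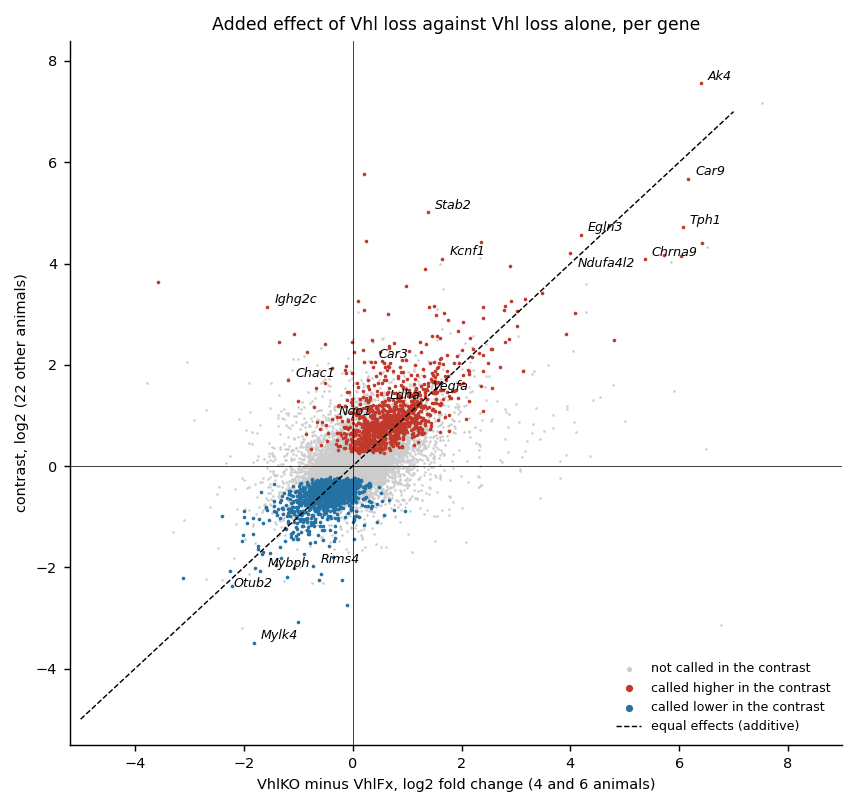
Each point is 1 of 13093 genes, with the contrast on the vertical axis and the effect of Vhl loss alone, in 10 other animals, on the horizontal axis. The dashed line marks equal values. Egln3 and Ndufa4l2 lie near the line, Stab2 and Kcnf1 above it, and Mylk4 below it.

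The added effect differed from the effect of Vhl loss alone in 496 genes (3.79%), 281 of them higher (2.15%) and 215 lower (1.64%). This count varied with single animals: it was 972 without VhlKO animal 2 and 300 without VhlKO animal 3. Stab2 had the clearest positive difference of those described here. VhlKO animals had 14.3, 16.8, 13.8 and 9.94 CPM, against 4.33, 5.50 and 5.68 CPM in VhlFx, an effect of 1.38 ± 0.14. The contrast exceeded it by 3.63 ± 0.30 (adjusted p = 5.38e-12), with 14.8 to 18.6 CPM in dKO and 9.94 to 16.8 CPM in VhlKO but 0.359 to 0.686 CPM in Bmal1KO. Kcnf1 (2.45 ± 0.48, adjusted p = 0.00174), Car3 (1.72 ± 0.23, adjusted p = 2.55e-05), Pfkfb3 (1.52 ± 0.33, adjusted p = 0.00747) and Ldha (0.70 ± 0.12, adjusted p = 0.000172) differed in the same direction. Each of these genes fell in the Bmal1 knockout.

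Nqo1, a quinone reductase and NRF2 target, differed in another way. It was at 37.8, 27.7, 26.5 and 27.5 CPM in dKO, against 11.2, 14.2 and 18.7 CPM in dFx. Bmal1KO animals stood at 15.6, 14.1, 16.0 and 14.1 CPM, against 12.8, 13.7 and 16.2 CPM in Bmal1Fx. In VhlKO it was at 11.3, 10.5, 11.0 and 11.2 CPM, against 12.7, 13.9 and 17.0 CPM in VhlFx. It was raised in the double knockout and in neither single knockout, with a contrast of 0.93 ± 0.15, a Vhl effect of -0.39 ± 0.12 (-0.042 and not called without scaling, adjusted p = 0.801) and a difference of 1.32 ± 0.19 (adjusted p = 1.51e-05).

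Mylk4 was at 138, 209, 150 and 121 CPM in VhlKO, against 473, 545 and 632 CPM in VhlFx, an effect of -1.82 ± 0.10. The difference between contrast and Vhl effect was -1.67 ± 0.19 (adjusted p = 6.2e-07), so the fall in the double knockout exceeded the sum of both single effects on the log2 scale. A difference below 0 was also called for Mylpf (-0.63 ± 0.12, adjusted p = 0.00135). Car14, a membrane-bound carbonic anhydrase, had a positive contrast (0.70 ± 0.17) that was smaller than the Vhl effect (1.77 ± 0.12), a difference of -1.07 ± 0.21 (adjusted p = 0.00213). It rose in the Bmal1 knockout too, by 0.75 ± 0.12.

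The control groups of the 2 lines can enter the contrast, since dFx and Bmal1Fx animals come from different lines. They differed in 139 genes (1.06%), 72 of them higher in dFx (0.55%) and 67 lower (0.512%). The count was 78 without dFx animal 2, 67 without dFx animal 3, 62 without dFx animal 6, 72 without Bmal1Fx animal 8, 58 without animal 9, 76 without animal 14 and 55 without animal 15. Arntl was among them, 0.56 ± 0.11 higher in dFx (adjusted p = 0.0022). Of the 2191 genes called in the contrast, 46 (2.1%) were also called between the control lines. Of 10 mitochondrial genome transcripts 3 were lower in dFx and none higher. Of 20 insulin signalling and GLUT4 genes 2 were higher and none lower. Myl1 also differed, a call lost in 9 of 32 cases when 1 library was left out. Ak4 (-0.13 ± 0.17), Stab2 (-0.07 ± 0.12) and Mylk4 (0.03 ± 0.08) showed no called difference between the control lines.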

How the data were processed

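QuantSeq 3′ RNA-seq libraries of whole gastrocnemius were used, 1 per animal. The submitters' processing notes name FastQC 0.11.4, STAR 2.6.0, HTSeq, edgeR 3.26.8 and the builds mm10 and GRCm38.p4; for HTSeq the version and strand setting are not given in the sources used. The authors deposited raw read counts per gene symbol, and normalized counts, a signal scaled by the authors to a common library size, which served in an alternative only. Libraries held 6945247 to 14717795 counts, and how many reads a gene has limits its precision. Among the symbols 27 had been turned into dates (0.061% of counts).

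All 32 high-fat diet libraries of batch 2 entered 1 fit with edgeR 4.0.16 (R 4.3.3): filterByExpr, TMM scaling, robust quasi-likelihood test with group means, edgeR's default prior count, and Benjamini-Hochberg adjusted p under 0.05 over all 13093 genes. A prior count of 2 was used only for the log2 CPM behind the correlations between animals. Adjusted p-values in the text come from this fit unless an alternative is named. Errors of log2 values are SE, computed as the absolute log2 value over the root of F. Alternatives used limma 3.58.1 (pseudocount 1, 13893 genes), DESeq2 1.42.0, other scalings and filters, and leaving out each library. On simulated counts of 12832 genes for the contrast, 67 genes were changed 1.5-fold, 67 were changed 2-fold and 66 were changed 4-fold. Of these, 53.7%, 80.6% and 98.5% were recovered, in that order. Fewer genes were changed than the 2191 called in the contrast. The shares therefore do not give the recovery over all genes tested, and need not hold for weakly expressed genes.

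Named genes are Arntl, Vhl, the 12 highest and 12 lowest values among called genes with an average log2 CPM of at least 2 (no predicted, Rik, ENSMUSG or mitochondrial symbols), and up to 4 members of each of 40 lists with the smallest p. Aldoa, Hif1a, Pdk3, Slc2a1 and genes named for an overlap were chosen after their values were seen. The members and lists were chosen with earlier results of these data known. The labels call the libraries separate animals of a group and say nothing on litters. Replicate numbers do not pair the animals. They follow the sample titles, and some Bmal1KO count columns carry a different number from the title of their animal. Batch 1 was not used here.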

Additional observations from a re-analysis of the deposited data

Results flagged for a closer look

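Of 112 sets of values tested for a single animal far from the rest of its group (26 genes, the mitochondrial share and the total counts, in 4 groups), 8 had one, and chance gives about 1 in 20. Chrna9 was at 51.2 CPM in dKO animal 1, against 28.8 to 30.2 CPM in the other dKO animals. It was at 0.572 CPM in dFx animal 6, against 0 to 0.109 CPM in the rest of dFx, and at 0.413 CPM in Bmal1Fx animal 8, against 0 to 0.173 CPM in the rest of Bmal1Fx. Animal 6 of dFx also stood apart for Pfkl (2.67 CPM, others 3.67 to 4.35), Otub2 (28.3 CPM, others 15.7 to 18.6) and Rims4 (10.4 CPM, others 5.88 to 6.99). Ndufa4l2 was at 1.08 CPM in Bmal1KO animal 9, against 2.73 to 3.17 CPM in the others. The mitochondrial share of counts was 22.3% in dFx animal 4, against 27.0 to 29.4% in the other dFx animals.

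For 7 of the genes with the highest and lowest contrasts, the contrast differed from the effect of Vhl loss alone in edgeR's test of that difference. The contrast was higher by 3.63 for Stab2 (adjusted p = 5.38e-12), by 2.45 for Kcnf1 (adjusted p = 0.00174), by 4.71 for Ighg2c (adjusted p = 0.00777) and by 1.17 for Ak4 (adjusted p = 0.0253). The call for Ighg2c was lost without dKO animal 3 (2.63, adjusted p = 0.0961). That for Ak4 was lost without Bmal1KO animal 7 (1.05, adjusted p = 0.0748) or 8 (1.04, adjusted p = 0.0812), and without scaling (1.10, adjusted p = 0.0612). The difference was -1.67 for Mylk4 (adjusted p = 6.2e-07). It was -1.26 for Rims4 (adjusted p = 0.0462) and -0.98 for Otub2 (adjusted p = 0.0472), and leaving out 1 library ended the call in 21 of 32 cases for Rims4 (adjusted p up to 0.103) and in 20 of 32 for Otub2 (adjusted p up to 0.1).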

How the results depend on the processing

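The contrast held 2191 genes (1007 higher, 1184 lower). At an adjusted p of 0.01 it held 1297 (566 higher, 731 lower), the Bmal1 knockout 594 higher, the control line difference 32 (12 higher, 20 lower) and the difference between contrast and Vhl effect 164 (108 higher, 56 lower). Without scaling the contrast held 2510 higher and 294 lower, the double knockout 7008 (6230 higher, 778 lower), the Bmal1 knockout 1382 higher, the Vhl knockout 5815 higher and 684 lower, the control lines 152 higher and 44 lower, and the difference between contrast and Vhl effect 134 higher. With no filter the control lines differed in 341 genes (176 higher, 165 lower), and with DESeq2 in 245 (126 higher, 119 lower). Leaving out 1 library gave 1889 to 2324 genes in the contrast (847 to 1052 higher, 1004 to 1272 lower), 55 to 192 between control lines (23 to 102 higher, 30 to 94 lower) and 300 to 972 for the difference between contrast and Vhl effect (178 to 532 higher, 122 to 440 lower).

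Replicate numbers correlated at -0.227 to 0.112 between knockouts and controls, so animals share only a number. With the replicate block the contrast held 717 genes (372 higher, 345 lower), the Bmal1 knockout 598 (228 higher, 370 lower), the control lines 2 (1 higher, 1 lower) and the difference between contrast and Vhl effect 225 (152 higher, 73 lower).

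Without scaling 5 of 148 named genes changed sign, none of them called: Arntl (0.028), Clock (0.018), Npas2 (0.22), Cry1 (0.068) and Usp2 (0.14). Npas2 was also above 0 with the block (0.39), in limma (0.11) and leaving out 1 library gave -0.24 to 0.29 for it and -0.039 to 0.21 for Fmod. Of 148 named genes, 123 kept direction and call at 0.01, 116 without scaling, 100 with the block, 147 in DESeq2, 141 in limma, 140 with no filter, and 148 with RLE scaling or without the robust option. The cause was not tested. Depth limits genes near 1 CPM, such as Chrna9 in controls.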
